A study of Mus musculus with 20 samples.

Results

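The genes described here are 33 transcripts of absorptive duct epithelium, chosen by symbol from the 55401 genes of the count table. They were proposed because most of them were higher in libraries that carry a contamination mark, so their difference by that mark is a description of the choice and is given without a test. By role they are 7 adhesion and keratin genes, 6 claudins, 5 genes of polarity, junction plaque and sorting, 4 surface proteases and inhibitors, 5 epithelial splicing and transcription factors, 3 duct and tubule transcription factors and 3 uptake genes. All 33 were found, and 29 passed the filter on low counts used for testing. The other 4 (Cldn4, Cldn8, Grhl2 and Pax2) did not pass it and are given as levels.

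The data were polyA RNA-seq counts from mouse eWAT, the white fat pad that lies along the epididymis, in 20 libraries. They came from a control diet (Control, n = 10) and from Random Food Restriction (Restricted, n = 10), a regime of intermittent fasting joined to 5% less energy. Each library also carries a Yes or No mark for spermatocyte contamination: 7 Control and 3 Restricted libraries were marked Yes, and 3 Control and 7 Restricted libraries were marked No. No strain, age or genetic change is given for the groups in the labels used here. The mark and the diet were therefore unevenly crossed, and diet was tested with the mark as a term.

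Efferent ducts and the epididymis carry sperm away from the testis, and their lining takes up fluid, proteins and amino acids from the lumen. Such a lining is held together by E-cadherin, Epcam and claudins, is built on simple keratins, and is specified by transcription factors such as Pax2 and Pax8. The efferent ducts also contain multiciliated cells, while the epididymal segments secrete proteins of their own. The mesothelium that covers the fat pad is an epithelium too and makes simple keratins.

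Sequence upstream of the start was available in RefSeq (GRCm38.p6) for 23 of the 33 genes, as 30 windows of 250 bases. In these, 4 motifs were searched on both strands, and they were chosen after several of these sequences had been seen. The E-box CACCTG was in 14 of the 30 windows, those of 13 genes, and in 17.2% of the 32851 windows of all genes. The HNF1 half-site GTTAAT was in 3 windows (6.43% of all), the GRHL motif AACCNGTT in 2 (1.79% of all) and the HNF4 motif CAAAGTCCA in 0 (0.384% of all). A match is a description of letters and not of binding. The windows of Epcam, Ap1m2 and Cldn4 are shown because they hold the E-box, with 4 copies in Ap1m2, and that of Hnf4a because it holds an E-box and a pair of HNF1 half-sites. Capitals mark the motifs on either strand, none of which overlap each other, and each line runs 5′ to 3′ on the strand of the gene. The windows lie at chr17:87635729-87635978 (plus strand, Epcam), chr9:21312334-21312583 (minus strand, Ap1m2), chr5:134946935-134947184 (minus strand, Cldn4) and chr2:163546955-163547154 (plus strand, Hnf4a). The first 3 end at or near an annotated gene start, and the Hnf4a stretch lies within the gene, before an inner start given by RefSeq. Bases just after the start were found in a GENCODE transcript for 24 of the 30 windows, but not for this Hnf4a window.
Epcam: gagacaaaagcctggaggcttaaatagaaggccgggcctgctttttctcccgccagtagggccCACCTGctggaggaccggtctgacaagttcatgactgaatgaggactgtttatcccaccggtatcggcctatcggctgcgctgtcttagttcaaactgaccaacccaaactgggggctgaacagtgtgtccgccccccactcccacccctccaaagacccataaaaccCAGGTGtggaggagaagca
Ap1m2: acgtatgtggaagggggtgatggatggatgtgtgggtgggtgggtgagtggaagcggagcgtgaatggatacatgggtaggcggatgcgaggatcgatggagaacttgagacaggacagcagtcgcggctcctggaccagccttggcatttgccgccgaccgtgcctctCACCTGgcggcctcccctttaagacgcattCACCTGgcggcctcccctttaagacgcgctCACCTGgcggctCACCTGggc
Cldn4: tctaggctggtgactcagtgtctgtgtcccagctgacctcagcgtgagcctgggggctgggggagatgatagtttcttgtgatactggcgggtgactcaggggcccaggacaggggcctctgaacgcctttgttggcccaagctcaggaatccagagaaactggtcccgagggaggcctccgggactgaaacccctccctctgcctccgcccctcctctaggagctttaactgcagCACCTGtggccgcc
Hnf4a: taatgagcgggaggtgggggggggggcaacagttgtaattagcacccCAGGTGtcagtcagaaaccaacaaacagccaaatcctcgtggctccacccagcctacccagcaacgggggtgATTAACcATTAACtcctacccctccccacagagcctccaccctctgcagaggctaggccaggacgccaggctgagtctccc

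Library totals ran from 14306528 to 44061508 counts. Adipocyte transcripts were abundant throughout (summed over 5 genes, 19884 to 30206 CPM, counts scaled to library size). Control 1 and Control 6 stood apart by epididymal transcripts. Crisp1, a secretory gene of the epididymis, was at 237 CPM in Control 1 (marked Yes) and 35.9 CPM in Control 6 (marked No), and its median was 0.166 CPM in libraries marked Yes and 0.117 CPM in those marked No. Skeletal muscle transcripts also varied, summing to 20.2 to 3583 CPM over 6 genes. The high sums were those of Control 1 to Control 5 and Restricted 1 (839 to 3583 CPM), and Restricted 10 was next at 115 CPM. Of the libraries with high sums, Control 3 is marked No and the others Yes. The mark names spermatocytes, and germ cell transcripts overlapped between its levels. Summed over 11 germ cell genes they lay at 2.71 to 122 CPM in libraries marked Yes and 2.9 to 40.7 CPM in those marked No. Prm2, a protamine of spermatids and not of the stage that the mark names, lay at 0.113 to 60.3 CPM in libraries marked Yes. It lay at 0 to 11.9 CPM in those marked No, where the highest value was that of Control 6. The contrast of the members by the mark and the diet test are also given without Control 1 and Control 6. The germ cell relation was repeated without Control 1. The other relations and the list calls are given with these libraries included.

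Of the 29 genes tested, 25 had a log2 fold change of at least 1 in libraries marked Yes over those marked No, against 3.92% of all genes tested. Because this contrast chose the genes, nothing is read from that count. Their median log2 fold change was 2.91, and that of all genes tested was -0.01. Without Control 1 and Control 6 the count was again 25 of 29, with a median of 3.42. In 14 genes every library marked Yes lay above every library marked No (2.04% of all genes tested). In bulk tissue, fewer cells of a type and less RNA per cell cannot be told apart, here and for every level below.

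**Figure D1:**
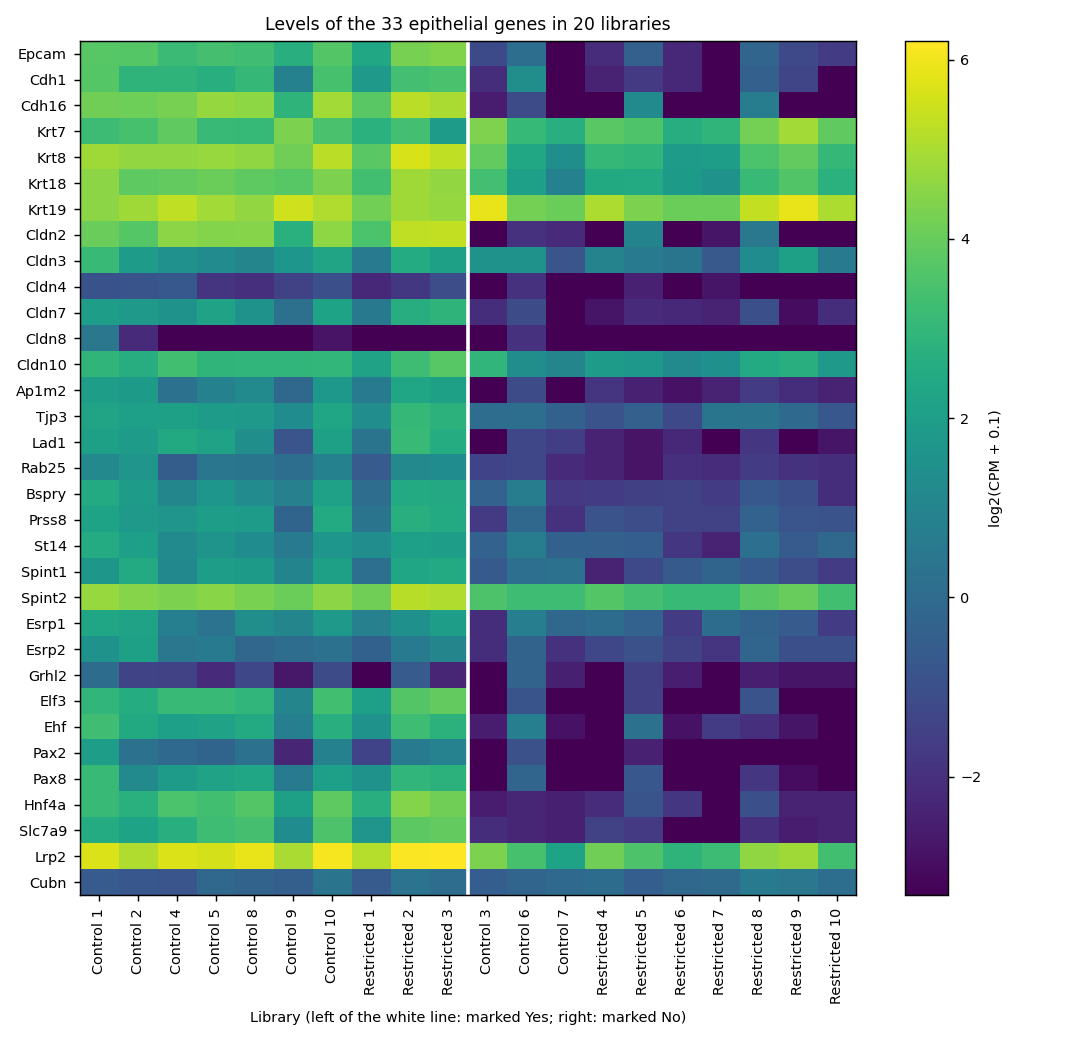
Level of each of the 33 genes (rows) in each of the 20 libraries (columns), as log2 of CPM plus 0.1, with libraries marked Yes left of the white line. Most rows are brighter on the left, and the rows of Krt7, Krt19 and Cubn show no such step.

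Among the adhesion genes, Epcam, a surface glycoprotein of simple epithelia, was at 5.13 to 21.0 CPM (median 11.6) in libraries marked Yes and 0 to 0.978 CPM (median 0.275) in those marked No, and the groups did not overlap. Cdh16, a cadherin of kidney tubule epithelium, was at 7.23 to 37.5 CPM (median 21.4) against 0 to 2.23 CPM (median 0). Its count was 0 in 6 of the 10 libraries marked No, and Restricted 5 (2.23 CPM) and Restricted 8 (1.53 CPM) held most of what was there. Cdh1, which encodes E-cadherin, was at 1.74 to 12.9 CPM against 0 to 2.52 CPM. Its groups overlapped through Control 6 (2.52 CPM, marked No) and Control 9 (1.74 CPM, marked Yes), since the next highest library marked No was at 0.657 CPM.

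The keratins, which form the filaments of simple epithelia, were split. Krt8 lay at 13.6 to 49.2 CPM (median 26.0) in libraries marked Yes and 2.61 to 15.0 CPM (median 7.69) in those marked No, and its partner Krt18 at 9.93 to 28.5 CPM (median 15.8) against 1.74 to 12.2 CPM (median 5.45). Both ranges overlapped slightly. Krt7 and Krt19 showed no such shift: Krt7 had medians of 9.70 and 12.7 CPM and a log2 fold change of -0.52, and Krt19 had medians of 28.9 and 26.2 CPM and -0.16. Per kilobase of annotated length, Krt19 had the highest mean level of the 33 genes in libraries marked Yes (16.1 ± 4.30 CPM per kilobase, SD, n = 10), followed by Krt8 (14.7 ± 5.43) and Krt18 (12.6 ± 4.18). These neighbours differed by less than 1 SD.

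The claudins, which set the permeability of tight junctions, also differed among themselves. Cldn2, a claudin of leaky, cation-permeable epithelia, was at 6.60 to 40.3 CPM (median 22.0) against 0 to 1.86 CPM (median 0.0220), and again Restricted 5 (1.86 CPM) and Restricted 8 (1.31 CPM) were the highest libraries marked No. Cldn7 was at 1.06 to 7.28 CPM against 0 to 0.402 CPM. The ranges of both genes were apart. Cldn10 (4.45 to 13.1 against 1.90 to 7.73 CPM) and Cldn3 (1.41 to 8.44 against 0.474 to 4.17 CPM) overlapped, and Cldn3 was among the 4 genes with a log2 fold change below 1, at 0.96. Cldn4 stayed at or below 0.516 CPM in every library. Cldn8 was at 1.27 CPM in Control 1, 0.124 CPM in Control 2, 0.0408 CPM in Control 10 and 0.154 CPM in Control 6, and no count was found in the other 16 libraries.

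Genes of polarity, junction plaque and sorting were low in both groups but well separated. Tjp3, a scaffold of tight junctions, was at 2.38 to 8.07 CPM against 0.330 to 1.19 CPM. Lad1, an anchoring filament protein, was at 0.475 to 8.69 CPM against 0 to 0.309 CPM, and Ap1m2, the epithelial subunit of a sorting adaptor, at 0.844 to 4.86 CPM against 0 to 0.360 CPM. Rab25, a small GTPase of apical recycling, was at 0.564 to 3.02 CPM against 0.0413 to 0.309 CPM. These 4 did not overlap, and Bspry did (0.959 to 5.62 against 0.135 to 1.54 CPM), with Control 6 as the highest library marked No.

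The membrane proteases Prss8 (prostasin) and St14 (matriptase) act in one cascade, and Spint1 and Spint2 encode inhibitors of it. Spint2 was the most abundant, at 16.6 to 35.9 CPM (median 22.5) against 8.39 to 15.8 CPM (median 10.1), with no overlap. Prss8 lay at 0.739 to 6.14 CPM against 0.158 to 0.824 CPM, overlapping only through Control 9 (0.739 CPM, marked Yes) and Control 6 (0.824 CPM, marked No). St14 (1.48 to 5.66 against 0.0878 to 1.49 CPM) and Spint1 (1.02 to 5.59 against 0.0881 to 1.07 CPM) each overlapped at the edge.

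Elf3, an ETS factor of epithelia, was at 1.90 to 15.0 CPM (median 7.99) in libraries marked Yes and had a count of 0 in 7 of those marked No, where it reached 0.463 CPM. Its relative Ehf was at 1.64 to 9.76 CPM against 0 to 1.65 CPM, with Control 6 (1.65 CPM) and Restricted 5 (1.07 CPM) as the highest libraries marked No. The splicing regulators Esrp1 and Esrp2 had log2 fold changes of 1.93 and 2.04 and overlapping ranges. Grhl2, a grainyhead factor that maintains epithelial identity, stayed at or below 0.943 CPM, and its highest values were those of Control 1 (0.943 CPM) and Control 6 (0.721 CPM).

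The duct and tubule factors were nearly confined, among these 20 libraries, to those marked Yes. Hnf4a, a nuclear receptor of absorptive epithelia, was at 4.17 to 21.7 CPM (median 10.6) against 0 to 0.454 CPM (median 0.0981). Pax8 was at 1.48 to 8.49 CPM against 0 to 0.772 CPM, with 6 libraries at 0, and Pax2 at 0.106 to 3.96 CPM against 0 to 0.412 CPM, with 8 libraries at 0. The highest Pax2 and Pax8 values were those of Control 1, and the highest among libraries marked No were those of Control 6.

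Of the uptake genes, Slc7a9, a cystine and basic amino acid transporter, had the largest log2 fold change of the 29 (6.44), at 2.38 to 15.0 CPM against 0 to 0.264 CPM. Lrp2, which encodes the endocytic receptor megalin, was at 31.8 to 74.0 CPM (median 52.5) against 4.54 to 29.0 CPM (median 11.1), with no overlap. Cubn encodes cubilin, the partner of megalin. It stayed at 0.473 to 1.18 CPM (median 0.680) in libraries marked Yes and 0.619 to 1.39 CPM (median 0.874) in those marked No, a log2 fold change of -0.14. Per kilobase, mean Lrp2 was 3.15 ± 0.936 and mean Cubn 0.0504 ± 0.0173 CPM in libraries marked Yes (SD, n = 10).

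**Figure D2:**
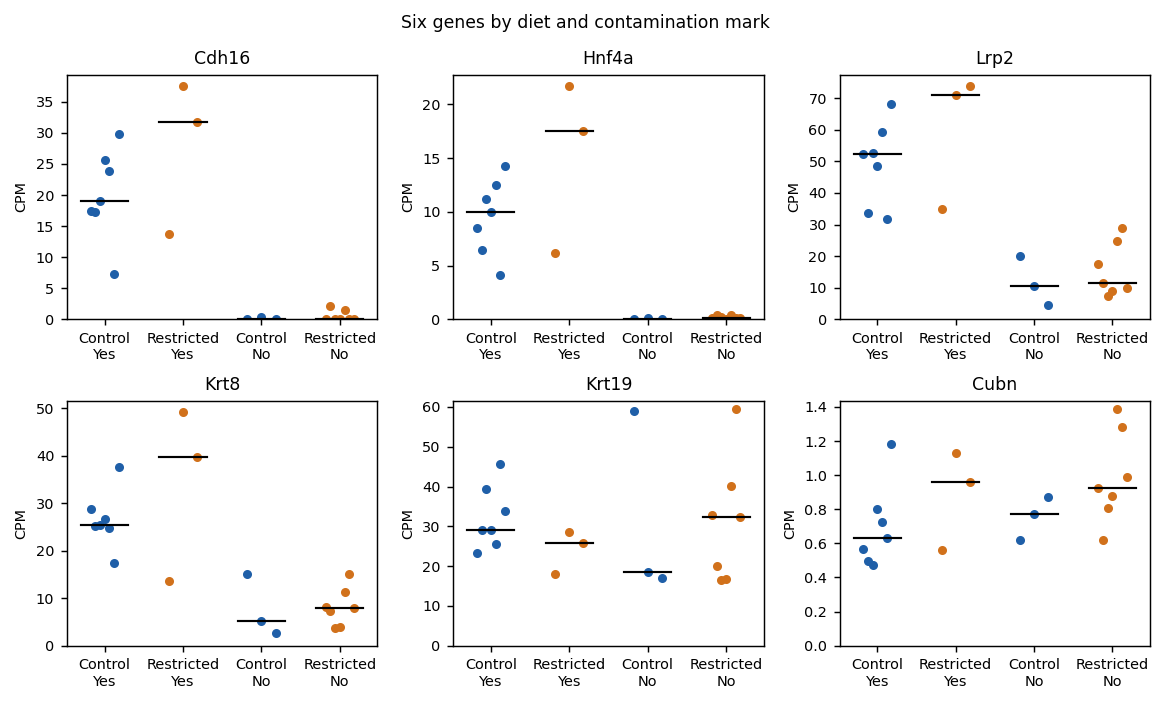
CPM of 6 genes in each library (points), by diet and contamination mark, with bars at the group medians; blue is Control and orange Restricted. Cdh16, Hnf4a and Lrp2 separate by mark, Krt8 nearly does, and Krt19 and Cubn do not.

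The levels of other lists were set beside these genes to describe which duct's markers accompanied them. For genes outside the 33, edgeR's quasi-likelihood test of the mark, with Benjamini-Hochberg adjustment, called 5.04% of all genes higher and 0.269% lower in libraries marked Yes. These lists were also chosen with earlier results of these data known. Their calls by the mark therefore describe the lists and are no independent test of which duct was present. Of 8 efferent duct genes, all tested, 5 rose: Slc9a3 (log2 fold change 6.58), Cftr (1.94), Car2 (1.59), Emx2 (1.10) and Adgrg2 (0.60). The apical exchanger gene Slc9a3 was at 2.32 to 16.9 CPM against 0 to 0.365 CPM. The other 3, Aqp1 (0.08), Slc9a3r1 (0.21) and Esr1 (0.29), did not pass and were well expressed in libraries of both kinds. The list summed to 558 to 791 CPM in libraries marked Yes and 510 to 690 CPM in those marked No, mostly from Aqp1.

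Of 6 genes of the multiciliated cell programme, 4 were tested and all 4 rose: Foxj1 (6.54), Trp73 (4.49), Gmnc (4.03) and Ccno (1.77). Foxj1, the factor for motile cilia, was at 7.65 to 48.0 CPM against 0 to 1.73 CPM, and the list summed to 10.1 to 58.6 CPM against 0.439 to 2.31 CPM. Mcidas had a count of 0 in 2 libraries marked Yes and 8 marked No.

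Markers of the epididymis proper followed 2 libraries rather than the mark. The 11 caput to cauda genes, of which 0 passed the filter, summed to 323 CPM in Control 1 and 76.2 CPM in Control 6, against a median of 0.776 CPM in libraries marked Yes and 0.183 CPM in those marked No. Adam7 was at 82.8 CPM in Control 1 and 16.4 CPM in Control 6, and Crisp1 had a count of 0 in 4 libraries of each mark. Of the 5 initial segment genes 1 was tested and was not called (Rnase10), and their summed level, highest in Control 1 (14.8 CPM), had medians of 0.603 CPM in libraries marked Yes and 0.584 CPM in those marked No.

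Secretory and kidney markers were low. Seminal vesicle genes summed to at most 8.70 CPM and prostate genes to at most 0.859 CPM, with 0 of either list passing the filter. Of the kidney proximal tubule list Kap had no count in any library, and the 6 genes summed to 0.330 to 1.56 CPM in libraries marked Yes and 0 to 0.256 CPM in those marked No. Within it the phosphate transporter gene Slc34a1 was at 0.211 to 1.23 CPM in libraries marked Yes and at 0 in all those marked No. In the kidney loop and collecting duct list Slc12a1 had no count, and the 1 gene tested, Aqp2, was not called.

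Among the remaining lists, the intestine and liver list had 1 of 2 tested genes called higher, Vil1 of the brush border (4.11). The Sertoli list had 1 of 3, Sox9 (1.16), and the skeletal muscle list 1 of 5, Ttn (5.53). The high muscle sums were, except for Control 3, those of libraries marked Yes. In the lists for clear and intercalated cells (1 tested), urothelium and basal epithelium (2 tested), Leydig cells (3 tested), germ cells (1 tested) and adipocytes (5 tested), 0 genes were called by the mark. Single libraries stood out in the first 2. The urothelium and basal list summed to 38.2 CPM in Control 2, against medians of 6.34 CPM (marked Yes) and 6.48 CPM (marked No). The clear and intercalated cell list was highest in Control 6 (7.77 CPM) and Control 1 (6.7 CPM), against medians of 2.04 CPM (marked Yes) and 1.39 CPM (marked No).

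Of 39 further epithelial junction and identity genes 30 were tested, 14 rose and 0 fell. Dsg2 (5.17), Tmprss2 (4.45), Prom1 (3.76) and Dsp (3.71) had the largest log2 fold changes, and these 4 were picked here for their size. The most abundant members per length, Jup (-0.03), F11r (0.01) and Tjp1 (-0.15), were not called, and Cd24a rose (1.36). Of 12 further uptake and amino acid transport genes 7 were tested and 4 rose, among them Pdzk1 (5.73), Folr1 (1.69) and Slc7a7 (0.33). Amn, whose product carries cubilin to the membrane, did not pass the filter and reached 1.04 CPM.

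**Figure D3:**
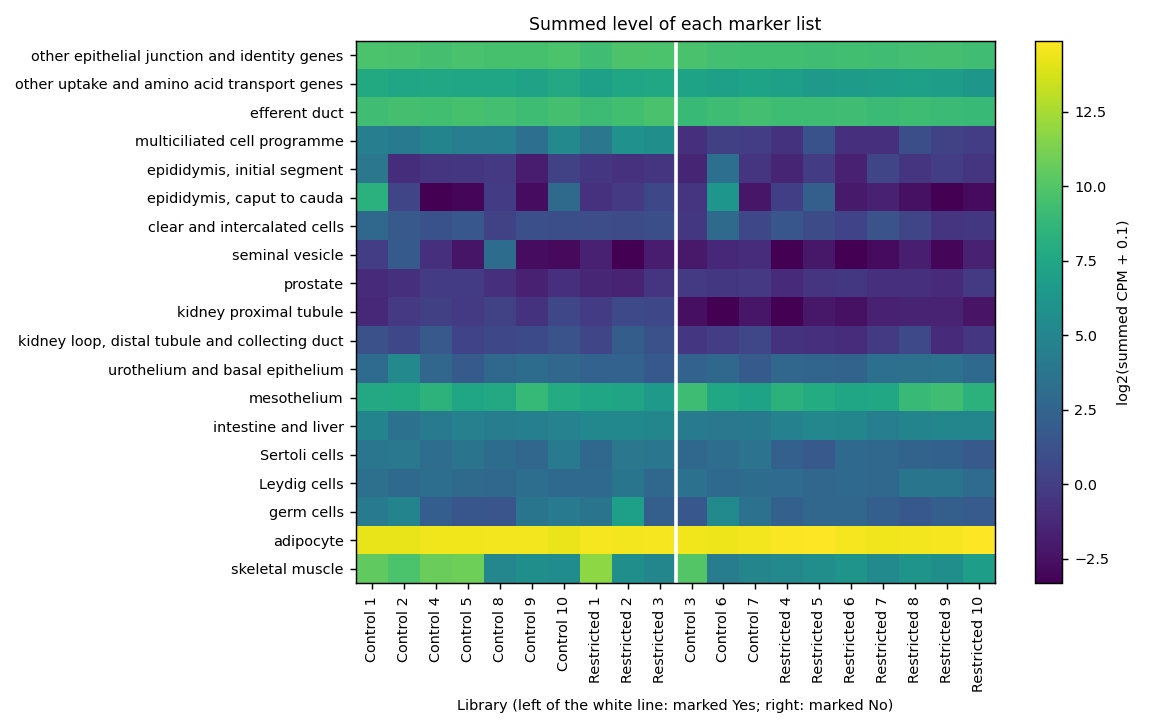
Summed level of each of the 19 other lists (rows) in each library (columns), as log2 of summed CPM plus 0.1, with libraries marked Yes left of the white line. The multiciliated cell row steps at the line, and the epididymis rows are bright in Control 1 and Control 6.

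Diet was tested on the genes with the mark as a term. Of the 29 genes tested, 0 were higher and 0 lower in Restricted libraries by edgeR's quasi-likelihood test with Benjamini-Hochberg adjustment over all 15986 genes, of which 13.6% were called (6.31% higher and 7.29% lower). At an unadjusted p under 0.05 there were 2 of 29 (28.3% of all genes), Hnf4a and Spint2, and DESeq2 called 0. No gene had Restricted and Control ranges that did not overlap (0.951% of all genes). Log2 fold changes ran from -0.58 (Cdh1) to 0.87 (Cldn2), with standard errors of 0.142 to 0.575. The median was 0.21 (0.01 over all genes), with 18 positive and 11 negative. Without Control 1 and Control 6, 0 of 29 were called and the median was 0.34.

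Among libraries marked Yes, Hnf4a was at 6.20, 21.7 and 17.5 CPM in the 3 Restricted libraries and 4.17 to 14.3 CPM (median 9.96) in the 7 Control libraries, which overlapped. Its log2 fold change by diet was 0.71 ± 0.339 (SE; adjusted p = 0.173 in edgeR). Without Restricted 1 it was called (1.04, adjusted p = 0.0437 in edgeR), the only call among the 29 when 1 library was left out. Leaving out Restricted 2 instead gave 0.44 (adjusted p = 0.503 in edgeR). Spint2 was at 17.7, 35.9 and 33.6 CPM in those Restricted libraries and 16.6 to 26.7 CPM in the Control libraries marked Yes, with a log2 fold change of 0.30 ± 0.142 (SE; adjusted p = 0.177 in edgeR). Restricted 1 was low in both genes, and Restricted 2 and Restricted 3 were the highest of all 20 libraries.

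The difference by diet was not shown to depend on the mark. The product of diet and mark was called for 0 of 29 genes by edgeR's quasi-likelihood test (0.0% of all genes), with a lowest adjusted p of 0.859. At an unadjusted p under 0.05 there was 1 gene, Bspry (5.45% of all genes). Only 3 libraries stood in each of the smaller groups, which limits this comparison. Many members also had counts at or near 0 in libraries marked No, such as Elf3 (0 in 7 of 10) and Cdh16 (0 in 6 of 10). In the fit of libraries marked No alone, 16 members passed the filter on low counts. For the others, little of a diet difference could be measured in libraries marked No.

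**Figure D4:**
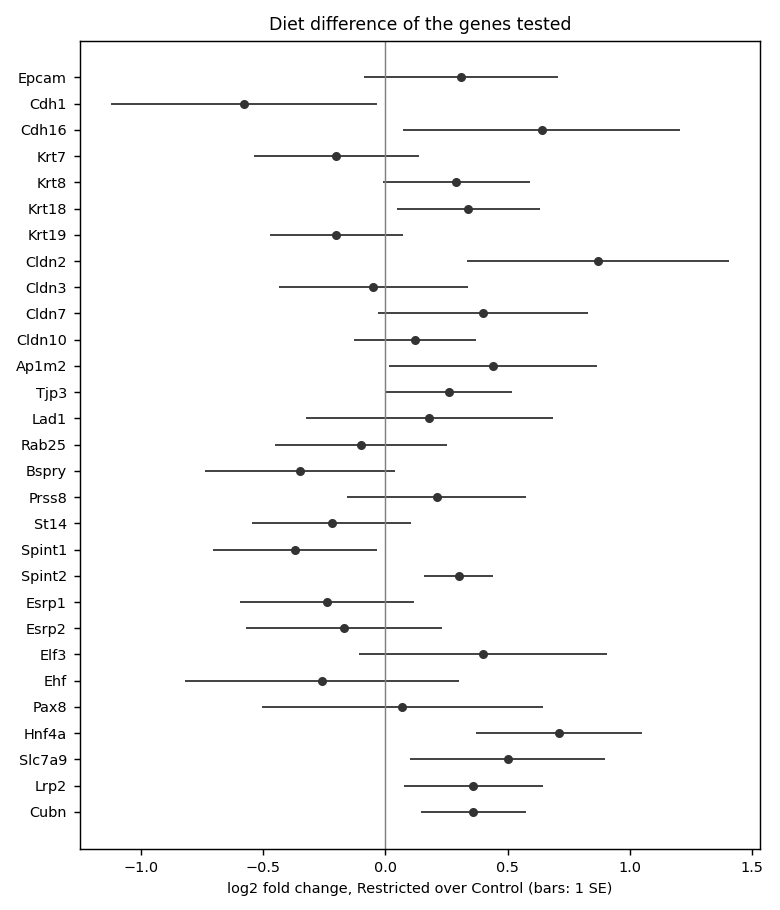
Log2 fold change of Restricted over Control (points) with 1 standard error (bars) for the 29 genes tested, from the fit with the contamination mark as a term. Points lie from -0.58 to 0.87, and 0 of 29 passed the test.

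Of the 45 genes tested in the other epithelium, uptake and efferent duct lists, 6 (13.3%) were called by diet in the same fit, a share near the 13.6% of all genes. Mal2 (1.45), Esr1 (0.50) and Cldn12 (0.21) rose, and Ppl (-0.63), Grhl1 (-0.62) and Dab2 (-0.38) fell, as log2 fold changes; Mal2 and Grhl1 were singled out for being called.

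The genes were next compared with germ cell transcripts among the 10 libraries marked Yes, using the mean log2 CPM of 11 germ cell genes. Of these 11, 1 passed the filter on low counts, so the index rests mostly on genes with low counts. It need not follow the summed level: Restricted 1 had an index of -2.85, the lowest of the libraries marked Yes. Its summed level was 12.7 CPM, against a median of 13.2 CPM in those libraries. Over the 28 members with at least 1 CPM on average there, Pearson's r ran from 0.03 to 0.67 (median 0.34). None of the 28 passed by permutation test, adjusted over the 28 (lowest 0.584) or over all 14420 genes at that level (lowest 0.769). At an unadjusted permutation p under 0.05 there was 1 positive relation, that of Cldn3 (r = 0.67, rho = 0.65), against 2.54% of all genes. Cdh16 had r = 0.10 (permutation p = 0.771, adjusted 0.954) and rho = 0.13 (permutation p = 0.732, adjusted 0.933). Without Restricted 1 and Restricted 2, the libraries farthest from the median index, its r was -0.47.

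The same 28 genes were compared with the mean of the 6 multiciliated cell genes, a relation added after values had been seen. At an unadjusted permutation p under 0.05, 18 were positive (7.48% of 14418 genes) and 0 negative. Adjusted over all those genes, 5 of 28 passed (Elf3, Hnf4a, Lrp2, Tjp3 and Cldn2), against 1.29% of all, and by the rank correlation 0 of these 5 did. Hnf4a had r = 0.95 (permutation p = 0.0001, adjusted 0.0206) and rho = 0.90 (permutation p = 0.00074, adjusted 0.104). Lrp2 had r = 0.91 (permutation p = 0.00024, adjusted 0.0296) and rho = 0.93 (permutation p = 0.00037, adjusted 0.0711). Without Restricted 2 and Control 9, r was 0.88 for Hnf4a and Cldn2, 0.90 for Lrp2, 0.86 for Elf3 and 0.77 for Tjp3. Within the 7 Control libraries marked Yes, 11 of 28 were positive at an unadjusted p under 0.05 by exact permutation test (3.92% of all genes), and 0 passed adjusted over all genes (lowest 0.500). There, r of Lrp2, Hnf4a and Cldn2 was 0.90, 0.91 and 0.90, and 0.54, 0.43 and 0.28 without Control 2 and Control 9. Control 9 (-0.49) and Control 2 (-0.07) had the lowest index of those 7 libraries. Leaving them out narrows the range of the index, so the drop cannot show whether the relation rested on them.

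Krt7 and Krt19, which did not step with the mark, were compared with the mesothelium list, also an added relation. The 7 mesothelium genes were all tested and 0 were called by the mark (Upk3b -0.75). They summed to 89.9 to 479 CPM in libraries marked Yes and 152 to 619 CPM in those marked No. In the 10 libraries marked No, 8 members had at least 1 CPM on average, and all 8 were positive at an unadjusted permutation p under 0.05 (4.12% of 13966 genes). Adjusted over all those genes, 5 of 8 passed (0.294% of all): Krt19 (r = 0.99), Cldn10 (0.98), Krt7 (0.97), Krt8 (0.97) and Krt18 (0.93). Lrp2 (0.92), Spint2 (0.87) and Cldn3 (0.75) did not. For Krt19 the permutation p was 1e-05, the smallest that the permutations can give (adjusted 0.0155), rho was 0.95 (permutation p = 0.00011, adjusted 0.0882) and r was 0.97 without Control 3 and Restricted 9. By the rank correlation Cldn10 and Krt8 passed (adjusted 0.0349 for each by permutation test). The share of all genes that passed by rank was not counted, so nothing is read from their number. Within the 7 Restricted libraries marked No, r of the 8 was 0.86 to 0.98 and all were positive at an unadjusted p under 0.05 by exact permutation test (3.54% of all genes), and 0 passed adjusted over all genes (lowest 0.212). In libraries marked Yes 2 of 28 were positive at an unadjusted permutation p under 0.05 (4.61% of all genes), Krt7 and Krt19. Krt7 had r = 0.94 (adjusted 0.126 by permutation test), and 0.81 without Restricted 3 and Control 9. Krt19 had r = 0.72 (adjusted 0.420 by permutation test), and 0.70 without them. At the same level 7 were negative (5.35% of all genes): Cdh16 (r = -0.70), Elf3, Ap1m2, Spint2, Cldn2, Cldn7 and Pax8 (-0.63). Without those 2 libraries r was -0.23 for Cdh16, 0.10 for Elf3 and -0.36 for Ap1m2. Adjusted over all genes, 0 of 28 passed.

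**Figure D5:**
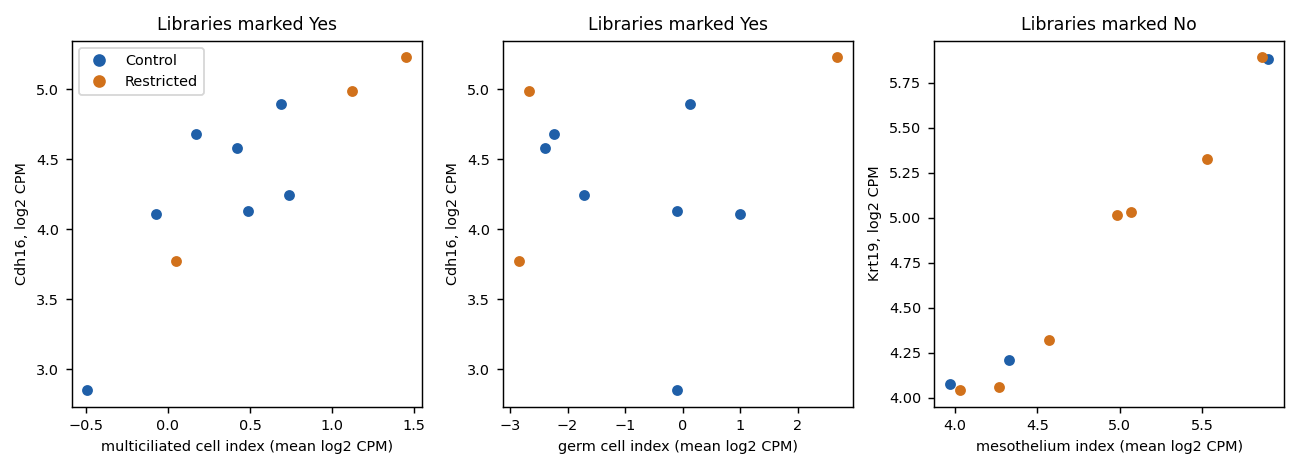
Log2 CPM of Cdh16 against the multiciliated cell index and the germ cell index in the 10 libraries marked Yes, and of Krt19 against the mesothelium index in the 10 libraries marked No; each point is a library, blue Control and orange Restricted. Cdh16 rises with the first (r = 0.85) and shows no clear trend with the second (r = 0.10), and Krt19 rises with the third (r = 0.99). The first relation did not pass adjusted over all genes (0.0814 by permutation test), and r was 0.65 without Restricted 2 and Control 9. Within Control libraries marked Yes its r was 0.76, and -0.17 without Control 2 and Control 9.

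Over the 10 libraries marked Yes, the 10 genes with the highest Pearson correlation of log2 CPM among 14577 genes were listed for Lrp2, Cdh1 and Krt19, as a description. For Lrp2 they were Eno4 (r = 0.972), Pls1, Gipc2, Galnt14, Sult1c2, Drc7, Hnf4a (0.957), 1700001C02Rik, Myo15b and Dnah9 (0.948), of which Hnf4a is one of the 33. For Cdh1 they were Ocln (0.973), Pax2, Ppm1h, Slc31a2, Prss8, Ehf, Mboat1, Foxo3, Chrna2 and 1700012B09Rik (0.943), with Pax2, Prss8 and Ehf among the 33. For Krt19 they were Gabre (0.927), Clu, AI661453, Wnt9a, Megf6, Ptgis, Sorbs3, U2af1, Rspo1 and Anxa9 (0.890), none of them among the 33.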

How the data were processed

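PolyA libraries of 20 eWAT samples were read as 52-bp paired ends, per the labels' protocols, whose extraction text names QUAD where the tissue label says eWAT. The authors deposited whole-number counts per gene, and, per the submitters' processing notes, bcl2fastq 4.0.3, STAR and Salmon were used with the build GRCm38, in roles not stated. How reads were counted, and with which strand setting, is not given in the sources used here. Hence reads of genes that overlap on opposite strands cannot be told apart. By the gene coordinates of the count table, Krt7, Krt8, Cldn3, Cldn10, Tjp3, Prss8, St14, Esrp2, Grhl2, Elf3, Pax2, Pax8, Hnf4a and Cubn have such a neighbour.

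Tests used edgeR 4.0.16 (R 4.3.3): its quasi-likelihood test with mark and diet as terms, TMM scaling, a minimum count of 10 in filterByExpr, and Benjamini-Hochberg adjustment at 0.05 over 15986 genes. The filter was grouped by diet, a choice made after a first fit grouped by diet and mark together had been seen and because it gave the number of tested genes that earlier work on these data had; the other groupings tried are in the closing section. DESeq2 1.42.0 was an alternative. SE is the absolute log2 fold change over the square root of F. CPM is counts over the tested-gene total times the TMM factor. Correlations used 100000 permutations (smallest possible p 1e-05), or exact permutation under 10 libraries, and were adjusted over all tested genes of at least 1 CPM on average. The test script was checked on simulated data.

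The members and lists were chosen with earlier results of these data known. Named were all 33 members, the 4 genes of each other list with the highest length-scaled level in libraries marked Yes (lists of 8 or fewer in full where counted), and the 10 nearest genes of Lrp2, Cdh1 and Krt19. Nothing in the labels ties each library to its own animal, so p-values measure only the spread among the samples, and it may be technical. At 3 counts, the floor for a count of 0, the level is 0.0681 to 0.210 CPM. The values of 1 listed gene are not reported here.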

Additional observations from a re-analysis of the deposited data

Results flagged for a closer look

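Values far from the rest were looked for in 58 sets of 7 libraries. The sets were 29 genes in Control libraries marked Yes and in Restricted libraries marked No. In them 6 such values were found. Chance flags about 1 in 20 such sets. The sets share libraries and are not independent, so nothing is read from 6 against that rate. All 6 were low values of Control 9, which is marked Yes. It had Cdh1 at 1.74 CPM (the other 6 libraries 6.33 to 12.9), Cdh16 at 7.23 CPM (17.3 to 29.8), Cldn7 at 1.06 CPM (2.84 to 4.49), Lad1 at 0.475 CPM (2.56 to 5.41), Prss8 at 0.739 CPM (3.01 to 5.59) and Elf3 at 1.90 CPM (5.88 to 9.83). In Control 9 the multiciliated cell genes summed to 10.1 CPM, the lowest of the libraries marked Yes, and the mesothelium genes to 479 CPM, the highest of them. The part of either in these values was not tested.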

How the results depend on the processing

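Of 34 alternatives of the diet test, 33 called 0 members, and the exception was the fit without Restricted replicate 1, which called 1 (Hnf4a), so that leaving out 1 library gave 0 to 1 calls and median log2 fold changes of 0.02 to 0.42. All 24 alternatives of the interaction test called 0, with medians of -0.22 to 0.76 when 1 library was left out. Without the 6 libraries with muscle transcripts, the medians lay outside these ranges, at 0.45 for diet and 1.08 for the interaction. Signs of 5 of 6 genes followed turned, with no call, where the mark was not a term: without it, log2 fold changes by diet were -0.56 (Hnf4a), -0.14 (Spint2), -0.48 (Cldn2), -0.41 (Lrp2) and -0.39 (Krt8), and with the germ cell index in its place -0.59 (Hnf4a), -0.47 (Cldn2), -0.30 (Lrp2) and -0.24 (Krt8). Exceptions were Cubn (0.36 with the mark, 0.42 without it, 0.48 with the index) and Spint2 with the index (0.03). The median over members was then -0.67 and -0.51; the mark is uneven over the diets, and the cause was not tested. Replicate numbers did not pair the libraries (correlation of same-numbered libraries -0.096 to 0.093, 0 of 10 above 0.1), and the fit with the replicate block called 0 members, with a median of -0.01. Filter groupings tried after seeing the data changed no member call by diet: grouping by diet and mark tested 17813 genes and 32 members (979 genes higher and 1119 lower by diet), and the design matrix tested 17105 genes and 30 members (1064 and 1082). By the mark, 25 to 27 members had a log2 fold change of at least 1 in all 6 alternatives, and 0 members passed against the germ cell index in all 3. Genes near 1 CPM or below, such as Cubn and Grhl2, are limited by depth.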
